A study of Mus musculus with 41 samples.

Results

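The 9 genes described here are genes of retinoid uptake and signalling, counted in mouse kidney. They are Stra6, Rbp4, Rdh10, Aldh1a1, Aldh1a2, Crabp2, Cyp26b1, Rara and Rarb. They were taken by name from a count table of 48795 genes, and the set was chosen by the counts of Stra6, which were higher at day 7 than at day 3 after ischemia in both cohorts of mice. That contrast is therefore given below as a description with no test.

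Kidneys were injured by stopping the blood supply of the left kidney and restoring it, a procedure called unilateral ischemia-reperfusion injury (UIRI). Male mice of the first cohort, aged 8 to 10 weeks, had 21 minutes of ischemia at a core body temperature of 34 °C. Mice of the UIRI+Nx d7 group lost the other, uninjured kidney on day 3 (contralateral nephrectomy, Nx) and were killed on day 7, mice of the UIRI d7 group had a sham nephrectomy on day 3 and were killed on day 7, mice of the UIRI d3 group were killed on day 3, and Control mice had no UIRI. Each of these 4 groups had 6 libraries. The second cohort, whose sample titles carry WT, held a UIRI+Nx d7 group of 4, a UIRI d7 group of 6 and a UIRI d3 group of 6, with no Control. Its sex, age, ischemia settings, day of nephrectomy and any sham operation are not known from the sources at hand. The strain of both cohorts is not known either. In the first cohort UIRI d7 differs from UIRI d3 both in time and in the sham operation, and these cannot be told apart.

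RNA came from a frozen section of a kidney pole and was sequenced from the 3′ ends of transcripts. The 40 grouped libraries held between 5090418 and 33362940 counted reads. Levels are given as CPM, counts scaled to library size, after TMM scaling, a scaling that aligns libraries on the bulk of their genes, and they serve to compare libraries within 1 gene, not genes with each other. Fold changes are log2 values, first-named group over second-named, with standard errors (SE). A gene was called when edgeR's quasi-likelihood test gave an adjusted p under 0.05 over all genes fitted in that cohort, 15701 in the first and 15543 in the second. All 9 genes passed the filter on low counts in the first cohort and 8 passed in the second, where Crabp2 did not. The p-values measure the spread between libraries, and 1 further library without a group in its title entered no comparison.

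Retinol travels in blood bound to the carrier RBP4, which STRA6 can bind at the cell surface to let retinol in. Inside the cell retinol is oxidised to retinal, chiefly by RDH10, and retinal is oxidised to retinoic acid by the ALDH1A enzymes. CRABP2 carries retinoic acid to nuclear receptors such as RARA and RARB, which bind DNA together with RXR partners, and CYP26B1 degrades it. In the developing kidney retinoic acid from stromal cells acts on the ureteric bud, and in injured adult kidney the pathway has been studied as a regulator of repair.

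Retinoic acid receptors bind direct repeats of a short half-site, named DR1, DR2 or DR5 after a spacer of 1, 2 or 5 bases. RefSeq promoter windows of build GRCm38.p6, from 250 bases before to 50 bases after a start site, were available for 7 of the 9 genes as 15 windows, and both strands of each were searched. The windows matched were those of Stra6, Rbp4, Aldh1a1, Aldh1a2, Cyp26b1, Rara and Rarb. Of the 15 windows, 1 held a match. It was a DR5 in Rarb, whose first base lay at position -53 from the start site. Among all 32851 windows in the table, 0.0974% held a DR5, 0.268% a DR2, 0.222% a DR1 and 0.588% any of these. The Rarb window is printed for its match, shown in capitals, and those of Stra6 and Aldh1a2 for the size of their expression differences below. The Rarb window is chr14:16575427-16575726 on the minus strand, the Stra6 window, the most 5′ of 4, is chr9:58128838-58129137 on the plus strand, and the Aldh1a2 window is chr9:71215539-71215838 on the plus strand.
Rarb: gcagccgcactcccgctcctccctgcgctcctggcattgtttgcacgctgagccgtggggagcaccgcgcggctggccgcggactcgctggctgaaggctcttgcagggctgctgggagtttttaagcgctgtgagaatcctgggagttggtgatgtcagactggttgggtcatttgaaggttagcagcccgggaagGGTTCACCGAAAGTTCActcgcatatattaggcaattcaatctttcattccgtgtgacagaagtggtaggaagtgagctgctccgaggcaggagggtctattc
Stra6: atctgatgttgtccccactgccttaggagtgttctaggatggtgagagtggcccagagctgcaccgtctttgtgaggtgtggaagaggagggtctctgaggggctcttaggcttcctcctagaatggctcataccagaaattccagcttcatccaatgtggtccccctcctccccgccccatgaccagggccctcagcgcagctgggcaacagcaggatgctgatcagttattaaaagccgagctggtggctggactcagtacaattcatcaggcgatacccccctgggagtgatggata
Aldh1a2: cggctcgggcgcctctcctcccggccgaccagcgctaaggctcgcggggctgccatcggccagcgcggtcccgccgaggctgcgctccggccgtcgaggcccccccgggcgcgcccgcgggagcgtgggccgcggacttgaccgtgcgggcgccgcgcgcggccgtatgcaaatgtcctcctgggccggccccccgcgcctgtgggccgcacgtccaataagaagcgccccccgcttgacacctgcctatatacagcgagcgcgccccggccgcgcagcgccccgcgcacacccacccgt
The letters of no DR1, DR2 or DR5 stand in the printed Stra6 and Aldh1a2 windows. A match of letters is a description of sequence, and Rarb itself was not called in any comparison below.

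Across the cohorts the 9 genes did not move as 1 group. Stra6 stood high in UIRI d7 kidneys and much lower in UIRI+Nx d7 kidneys, Aldh1a1 was highest in UIRI+Nx d7 kidneys, and Aldh1a2 was raised in every injured group of the first cohort. Rdh10 and Rara showed smaller differences, and edgeR's fit of all groups called Rbp4, Crabp2, Cyp26b1 and Rarb in no comparison. The plot of CPM by library shows all 40 values of each gene.

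**Figure D1:**
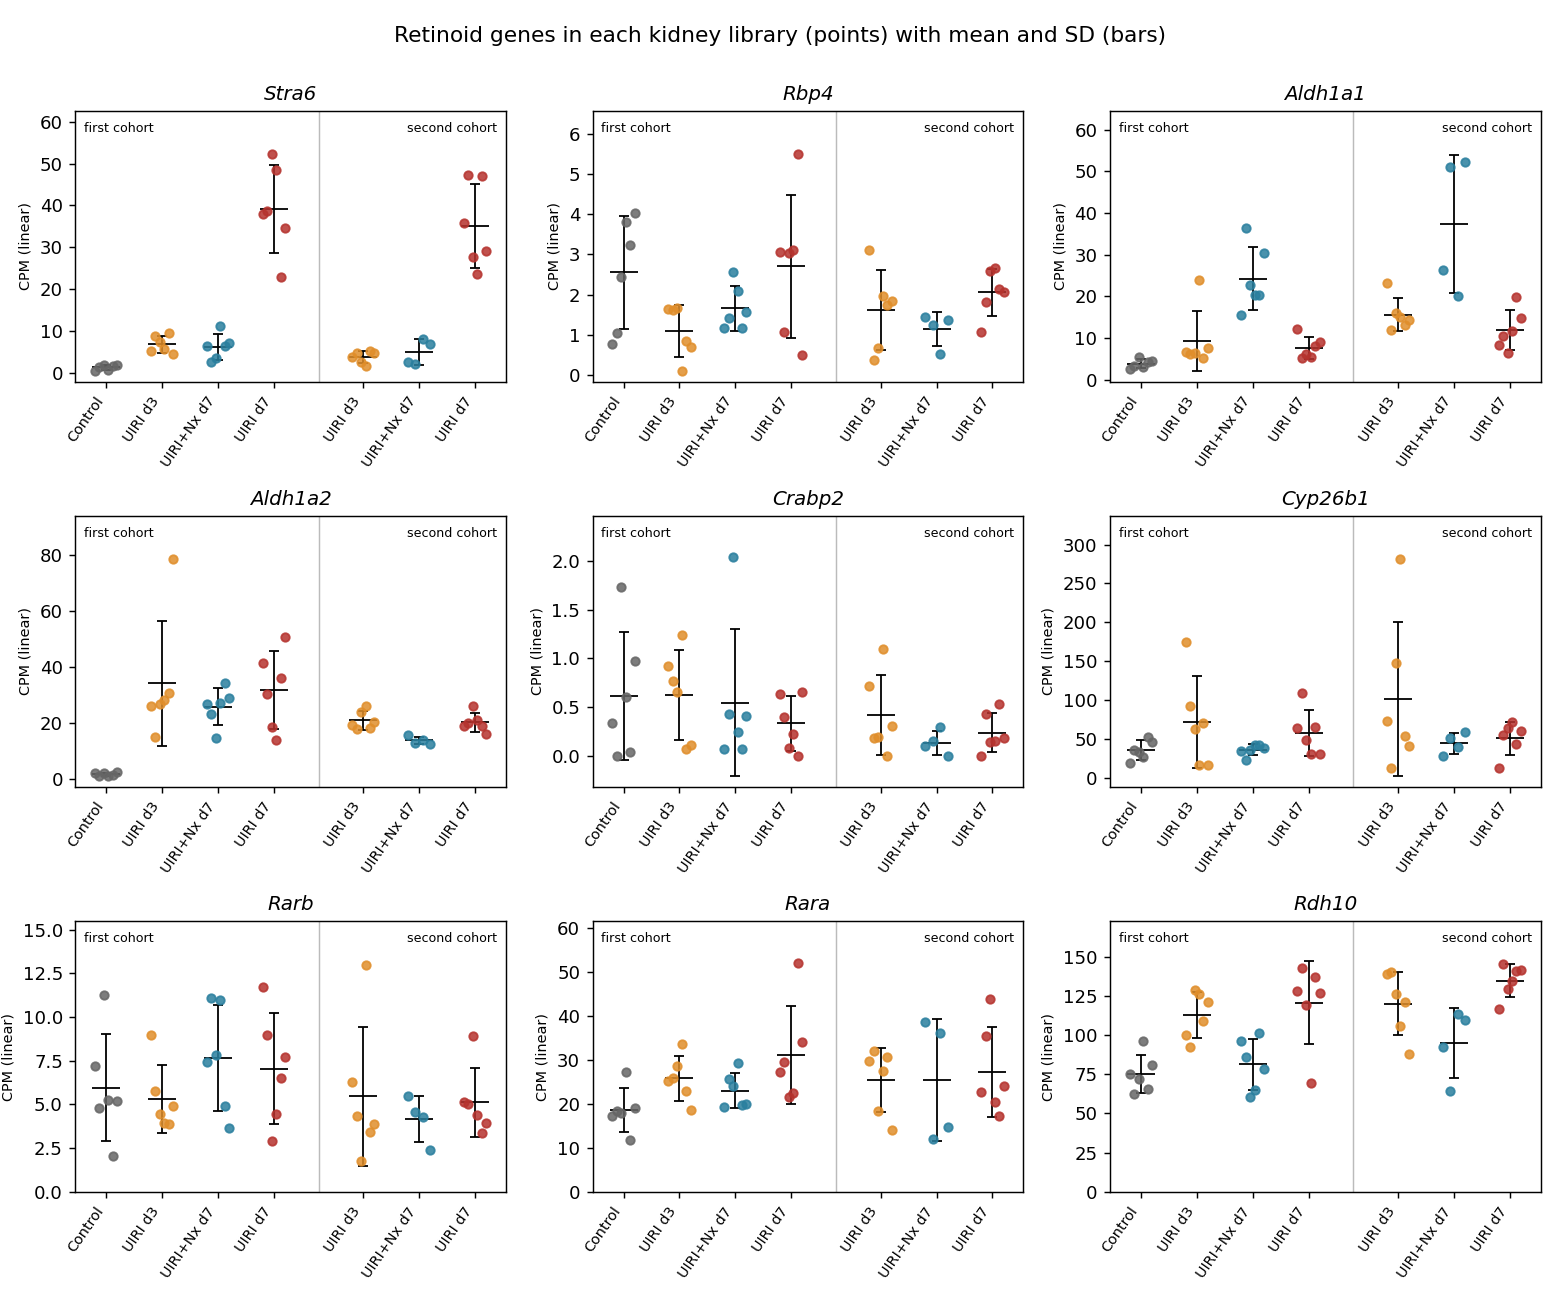
CPM on a linear axis for each of the 9 genes, with 1 point per library, a bar at the group mean and whiskers of 1 SD; the first cohort is left of the grey line and the second right of it. Stra6 libraries of UIRI d7 lie between 22.9 and 52.3 CPM in the first cohort and 23.7 and 47.3 CPM in the second, above every other library of their cohort, while Aldh1a1 is highest in UIRI+Nx d7.

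Stra6 (ENSMUSG00000032327), the membrane receptor for retinol-bound RBP4, lies at chr9:58063788-58153996 on the plus strand of GRCm38. Its lowest, median and highest CPM in the first cohort were 0.510, 1.52 and 1.94 in Control, 4.49, 6.54 and 9.55 in UIRI d3, 2.50, 6.47 and 11.2 in UIRI+Nx d7, and 22.9, 38.3 and 52.3 in UIRI d7. In the second cohort they were 1.57, 4.28 and 5.29 in UIRI d3 and 23.7, 32.4 and 47.3 in UIRI d7, and the 4 UIRI+Nx d7 libraries held 2.7, 2.04, 8.06 and 6.99 CPM. UIRI d7 libraries were thus the highest in both cohorts with no overlap, the UIRI d3 and UIRI+Nx d7 libraries overlapped each other, and Control libraries were lowest.

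The day 7 difference in Stra6, which chose the gene, was a log2 fold change of 2.52 (SE 0.31) for UIRI d7 over UIRI d3 in first-cohort kidneys and 3.21 (SE 0.33) in the second cohort. Over all genes, 2.6% and 8.56% were called in those contrasts, and nothing is read from this. Also without a test, since they use the same libraries, Stra6 differed by -2.62 (SE 0.31) for UIRI+Nx d7 over UIRI d7 in the first cohort and by -2.86 (SE 0.39) in the second, by 4.82 (SE 0.35) for UIRI d7 over Control, and by 2.31 (SE 0.33) for UIRI d3 over Control. Between UIRI+Nx d7 and UIRI d3 the Stra6 values were -0.11 (SE 0.30) in first-cohort kidneys and 0.35 (SE 0.37) in the second cohort, with overlapping libraries. The cohorts' nephrectomy values of Stra6 came from separate mice, and their difference, second minus first, was -0.23 (SE 0.48).

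The contrast of Stra6 that did not use the libraries of its choice was UIRI+Nx d7 over Control. Stra6 rose there by 2.20 (SE 0.33, edgeR adjusted p = 8.19e-06), with mean CPM of 6.24 ± 3.06 in UIRI+Nx d7 and 1.34 ± 0.590 in Control (SD, n = 6 each) and no overlap between libraries. In the same contrast 17.3% of all genes were called higher and 9.74% were higher without overlap. Since whole tissue was measured, more cells of a type and more RNA per cell cannot be told apart for Stra6 or any gene below.

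Library sets with consecutive sample-sheet numbers in the column headers were treated as possible batches, since no label names one. First-cohort UIRI d7 libraries came from sets 1a and 1b, while the other groups also had libraries in set 2b. The sample-sheet numbers of set 2b lie between those of sets 2a and 2c, which are of the second cohort. Set 2b may therefore share a sheet with the second cohort. Within set 1a, with 3 libraries in each group, the Stra6 difference of UIRI+Nx d7 over UIRI d7 was -3.28. Within the second cohort it was -4.16 in set 2a, with 2 libraries in each group, and -2.09 in set 2c, with 2 UIRI+Nx d7 and 4 UIRI d7 libraries. All UIRI d3 libraries of the second cohort came from set 2a, where the 2 UIRI d7 libraries held 35.7 and 47.3 CPM of Stra6, above the highest UIRI d3 library at 5.29. For UIRI+Nx d7 over Control, Stra6 remained called within set 1a at 1.75 (edgeR adjusted p = 0.0196) and within set 2b at 1.90 (edgeR adjusted p = 0.0224).

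The 5 genes whose log2 CPM tracked Stra6 most closely were found by the lower of its Pearson correlations over the 24 libraries of the first cohort and the 16 of the second, among 15262 genes. They were Serpina6 (0.908), which encodes the corticosteroid carrier in plasma, Defb36 (0.896), a beta-defensin, Arhgap9 (0.893), Pdlim4 (0.886), a cytoskeletal PDZ-LIM protein, and Pltp (0.863), a phospholipid transfer protein. Serpina6, for example, had median CPM of 0.687 in UIRI+Nx d7 and 9.54 in UIRI d7 of the first cohort, and 1.03 in UIRI+Nx d7 and 10.8 in UIRI d7 of the second. The points share libraries and group differences, so these values are descriptions. Of the 7 other retinoid genes compared, which leave out Crabp2, Rdh10 had the highest lower correlation with Stra6, at 0.533, although Aldh1a2 was closer in the first cohort, at 0.686 against 0.113 in the second. Aldh1a1 gave 0.187 in first-cohort libraries and -0.504 in second-cohort libraries.

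Rbp4 (ENSMUSG00000024990, chr19:38116629-38125281, minus strand), the retinol carrier that STRA6 binds, was counted at low levels throughout. First-cohort CPM (lowest, median and highest) were 0.765, 2.83 and 4.04 in Control, 0.112, 1.24 and 1.67 in UIRI d3, 1.16, 1.5 and 2.55 in UIRI+Nx d7, and 0.491, 3.04 and 5.49 in UIRI d7. In the second they were 0.373, 1.80 and 3.11 in UIRI d3 and 1.08, 2.10 and 2.66 in UIRI d7, and the UIRI+Nx d7 libraries held 1.45, 1.24, 0.517 and 1.37 CPM. All groups overlapped, and edgeR's fit of all groups called Rbp4 in none of the tested comparisons. Its value for UIRI d3 over Control was -1.19 (SE 0.50, edgeR adjusted p = 0.0682), which DESeq2 called (-1.22, adjusted p = 0.0363). The direction of that Rbp4 value differed between library sets, at 0.16 in set 1a (edgeR adjusted p = 0.877) and -1.78 in set 2b (edgeR adjusted p = 0.0405). For UIRI+Nx d7 over UIRI d7 it was -0.73 (SE 0.49) in first-cohort kidneys and -0.83 (SE 0.48) in the second cohort, with edgeR adjusted p of 0.434 in the first and 0.367 in the second.

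Rdh10 (ENSMUSG00000025921, chr1:16105774-16133734, plus strand) encodes the retinol dehydrogenase that makes retinal. Its lowest, median and highest CPM in the first cohort were 62.4, 73.6 and 95.9 in Control, 92.1, 115 and 129 in UIRI d3, 60.2, 82.1 and 102 in UIRI+Nx d7, and 69.3, 128 and 143 in UIRI d7. In the second cohort they were 87.9, 124 and 140 in UIRI d3 and 116, 138 and 145 in UIRI d7, and the UIRI+Nx d7 libraries held 92.3, 64.1, 113 and 109 CPM. In the first cohort all groups overlapped by at least 1 library, and in the second the UIRI+Nx d7 libraries all lay below the UIRI d7 libraries.

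Rdh10 rose by 0.58 (SE 0.17) in UIRI d3 over Control (edgeR adjusted p = 0.00886) and by 0.68 (SE 0.17) in UIRI d7 over Control (edgeR adjusted p = 0.00207). In UIRI+Nx d7 it was 0.11 (SE 0.17) over Control (edgeR adjusted p = 0.676). With nephrectomy Rdh10 fell by 0.57 on the log2 scale in the first cohort (SE 0.17, edgeR adjusted p = 0.0406), a call kept in 3 of 12 fits that left out 1 library, and its value in the second was -0.51 (SE 0.16, edgeR adjusted p = 0.0721). Within set 1a the Rdh10 values were not called: 0.45 for UIRI d3 over Control, 0.70 for UIRI d7 over Control and -0.49 for UIRI+Nx d7 over UIRI d7.

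Aldh1a1 (ENSMUSG00000053279, chr19:20492715-20643465, plus strand), a retinal dehydrogenase that makes retinoic acid, was highest after nephrectomy in both cohorts. In the first its lowest, median and highest CPM were 2.46, 3.73 and 5.42 in Control, 5.09, 6.55 and 23.8 in UIRI d3, 15.5, 21.5 and 36.3 in UIRI+Nx d7, and 5.10, 7.04 and 12.1 in UIRI d7. In the second they were 11.9, 14.7 and 23.2 in UIRI d3 and 6.46, 11 and 19.8 in UIRI d7, and the UIRI+Nx d7 libraries held 26.3, 51.0, 20.0 and 52.2 CPM. Every UIRI+Nx d7 library was above every UIRI d7 library of its cohort, and 1 UIRI d3 library of each cohort reached into the UIRI+Nx d7 range.

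With nephrectomy Aldh1a1 rose by 1.67 (SE 0.33, edgeR adjusted p = 0.00218) over UIRI d7 in the first cohort and by 1.67 (SE 0.29, edgeR adjusted p = 0.00206) in the second. These calls held in all 12 fits of the first cohort and all 10 of the second that left out 1 library. Within sets the value was 1.72 in set 1a (edgeR adjusted p = 0.100), 2.03 in set 2a (0.0150) and 1.44 in set 2c (0.322). Over Control Aldh1a1 rose by 2.66 (SE 0.34, edgeR adjusted p = 7.99e-07) in UIRI+Nx d7, without overlap.

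In kidneys without nephrectomy the Aldh1a1 rise over Control was smaller and overlapped Control. It was 1.26 (SE 0.33, edgeR adjusted p = 0.00383) in UIRI d3, and 0.74 (adjusted p = 0.0274) without UIRI d3 replicate 3, the library at 23.8 CPM. Within sets 1a and 2b, which do not hold that library, it was 0.78 and 0.51, with edgeR adjusted p of 0.283 in set 1a and 0.333 in set 2b. In UIRI d7 it was 0.99 (SE 0.33, edgeR adjusted p = 0.0183), which was not called without UIRI d7 replicate 1 (0.80, adjusted p = 0.0621) or with the library set in the model (0.83, adjusted p = 0.0613). For UIRI d7 over UIRI d3 the untested values of Aldh1a1 were -0.28 (SE 0.32) in first-cohort kidneys and -0.40 (SE 0.27) in the second cohort, and the first-cohort value turned to 0.25 without UIRI d3 replicate 3.

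Aldh1a1 shares sequence with Aldh1a7, a closely related aldehyde dehydrogenase of rodents. Of the 705 distinct stretches of 50 bases in the last 400 bases of Aldh1a1 transcripts, 74 (10.5%) also occur in Aldh1a7, so some reads of the pair may not be told apart. Aldh1a7 also rose with nephrectomy, by 1.94 (SE 0.27, edgeR adjusted p = 5.7e-05) in the first cohort and by 1.75 (SE 0.24, edgeR adjusted p = 0.000262) in the second. Its CPM ranged over 36.8 to 91.7 in UIRI+Nx d7 and 7.91 to 20.5 in UIRI d7 of the first cohort, and over 39.0 to 91.7 in UIRI+Nx d7 and 14.1 to 27.9 in UIRI d7 of the second, with no overlap.

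**Figure D2:**
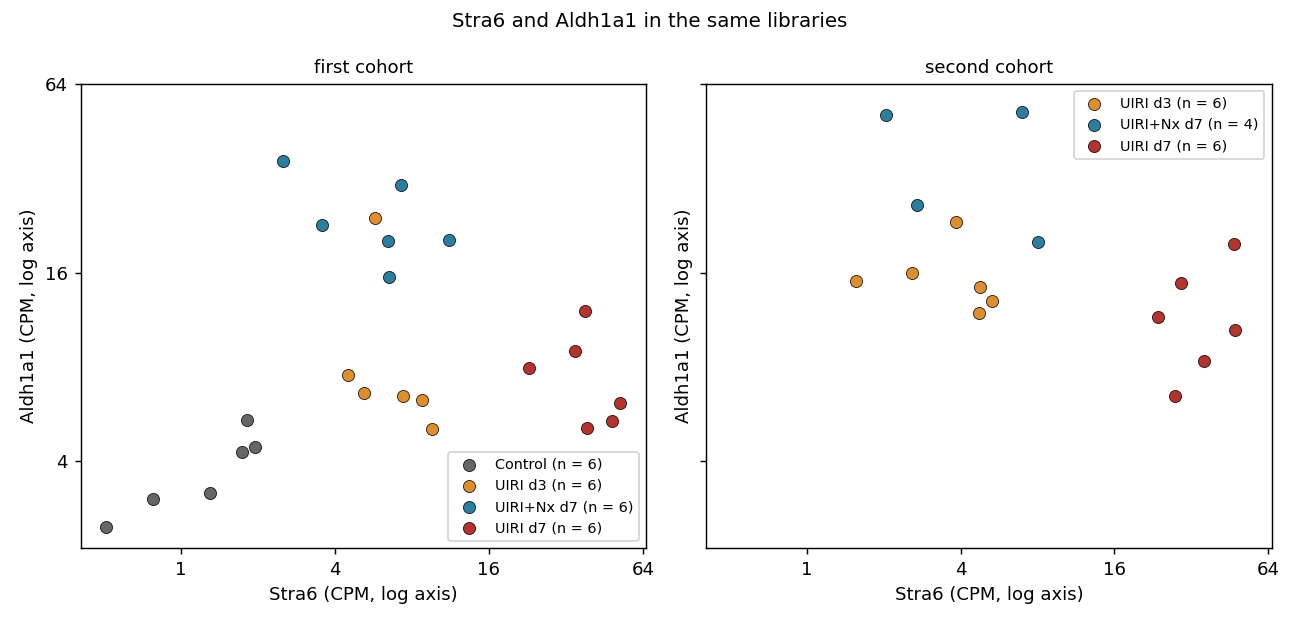
Stra6 CPM (x, log axis) against Aldh1a1 CPM (y, log axis) for each library of the first cohort (left) and the second (right), coloured by group. UIRI+Nx d7 libraries lie at 15.5 CPM of Aldh1a1 or more with at most 11.2 CPM of Stra6, and UIRI d7 libraries lie at 22.9 CPM of Stra6 or more with at most 19.8 CPM of Aldh1a1.

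Aldh1a2 (ENSMUSG00000013584, chr9:71215789-71296243, plus strand) encodes the retinal dehydrogenase that supplies most retinoic acid in the embryo. It had the largest called rise over Control of the 9 genes in each injured group. The Stra6 value for UIRI d7 over Control, which was not tested, was larger, at 4.82. The first cohort gave lowest, median and highest CPM of 1.21, 1.87 and 2.58 in Control, 15.2, 27.5 and 78.6 in UIRI d3, 14.8, 27.1 and 34.2 in UIRI+Nx d7, and 14.0, 33.3 and 50.9 in UIRI d7. In the second they were 18, 20.0 and 26.3 in UIRI d3 and 16.1, 19.6 and 26.1 in UIRI d7, and the UIRI+Nx d7 libraries held 15.7, 13.1, 14.2 and 12.6 CPM. Every injured library of the first cohort lay above every Control library, and the 3 injured groups overlapped each other. In the second cohort the UIRI+Nx d7 libraries lay below all others.

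Aldh1a2 rose over Control by 4.23 (SE 0.37, edgeR adjusted p = 1.75e-09) in UIRI d3, by 3.83 (SE 0.37, edgeR adjusted p = 9.03e-09) in UIRI+Nx d7 and by 4.12 (SE 0.37, edgeR adjusted p = 2.14e-09) in UIRI d7. Without the UIRI d3 library at 78.6 CPM, replicate 6, the first value was 3.79, and within sets 1a and 2b all were called, between 3.48 and 4.41. With nephrectomy Aldh1a2 was -0.29 (SE 0.32, edgeR adjusted p = 0.669) relative to UIRI d7 in the first cohort. In the second it fell by 0.55 on the log2 scale (SE 0.16, edgeR adjusted p = 0.0455), a call kept in 1 of 10 fits that left out 1 library. The difference between the cohorts, second minus first, was -0.26 (SE 0.40, edgeR adjusted p = 0.864).

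Crabp2 (ENSMUSG00000004885, chr3:87948666-87953376, plus strand), which carries retinoic acid to its receptors, was near the limit of counting. Its libraries held between 0 and 47 reads, or at most 2.04 CPM, and groups overlapped throughout. First-cohort Crabp2 values were -0.05 (SE 0.80) in UIRI d3, -0.44 (SE 0.85) in UIRI+Nx d7 and -0.91 (SE 0.86) in UIRI d7, each over Control, with edgeR adjusted p of 0.437 or more. Crabp2 rests on few reads, and these standard errors limit what its values can show.

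Cyp26b1 (ENSMUSG00000063415, chr6:84571414-84593908, minus strand), which breaks down retinoic acid, varied widely between libraries of the same group. In UIRI d3 its lowest, median and highest CPM were 15.6, 66.0 and 175 in the first cohort and 12.1, 63.3 and 281 in the second, a span of 11.2-fold in the first and 23.2-fold in the second. In the first cohort they were 18.3, 34.6 and 52.1 in Control, 22.8, 36.4 and 42.1 in UIRI+Nx d7, and 30.0, 56.0 and 109 in UIRI d7. In the second they were 12.1, 57.1 and 71.5 in UIRI d7, and the UIRI+Nx d7 libraries held 28.1, 50.8, 38.8 and 58.3 CPM. The spread was thus widest on day 3 in both cohorts, and all groups overlapped.

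Cyp26b1 was not called by edgeR's fit of all groups in any tested comparison. Its value for UIRI d3 over Control was 1.02 (SE 0.42, edgeR adjusted p = 0.0649), which DESeq2 called (1.01, adjusted p = 0.0449). It was 2.19 within set 1a (edgeR adjusted p = 0.00899) and -0.03 within set 2b (edgeR adjusted p = 0.979), and ran from 0.53 upward to 1.23 with 1 library left out. In UIRI+Nx d7 it was 0.01 (SE 0.42) over Control. Relative to UIRI d7, UIRI+Nx d7 kidneys gave -0.70 (SE 0.42, edgeR adjusted p = 0.366) in first-cohort kidneys and -0.20 (SE 0.57, edgeR adjusted p = 0.890) in the second cohort.

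Rara (ENSMUSG00000037992, chr11:98927818-98974942, plus strand), the most widely expressed retinoic acid receptor, ranged over 11.7 to 27.2 CPM in Control, 18.5 to 33.6 in UIRI d3, 19.3 to 29.2 in UIRI+Nx d7 and 21.7 to 52.0 in UIRI d7 of the first cohort. Its medians in those groups were 18.1, 25.6, 22.1 and 28.5 CPM. In the second cohort it ranged over 14.1 to 32.0 CPM in UIRI d3 and 17.2 to 43.9 in UIRI d7, with 38.6, 12.1, 36.1 and 14.8 CPM in the UIRI+Nx d7 libraries, and all groups overlapped. Rara rose by 0.75 (SE 0.21, edgeR adjusted p = 0.00537) in UIRI d7 over Control, and by 0.57 within set 1a without a call (adjusted p = 0.0585). Its values over Control of 0.47 (SE 0.21) in UIRI d3 and 0.31 (SE 0.21) in UIRI+Nx d7 had edgeR adjusted p of 0.0849 in UIRI d3 and 0.289 in UIRI+Nx d7. With the library set in the model the UIRI d3 value of Rara was called (0.52, edgeR adjusted p = 0.021). With nephrectomy Rara was -0.44 (SE 0.21) relative to UIRI d7 in first-cohort kidneys and -0.11 (SE 0.33) in the second cohort, without a call.

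Rarb (ENSMUSG00000017491, chr14:16430839-16819156, minus strand) encodes a receptor whose own gene is a classical target of retinoic acid. Its CPM ranged over 2.08 to 11.2 in Control, 3.89 to 8.98 in UIRI d3, 3.66 to 11.1 in UIRI+Nx d7 and 2.94 to 11.7 in UIRI d7 of the first cohort. In the second it ranged over 1.79 to 13 CPM in UIRI d3 and 3.34 to 8.90 in UIRI d7, with 5.50, 4.55, 4.29 and 2.37 CPM in the UIRI+Nx d7 libraries. All groups overlapped. Rarb values over Control were -0.17 (SE 0.35) in UIRI d3, 0.36 (SE 0.35) in UIRI+Nx d7 and 0.25 (SE 0.35) in UIRI d7, with edgeR adjusted p of 0.494 or more. Over UIRI d7, UIRI+Nx d7 gave 0.11 (SE 0.35) in first-cohort kidneys and -0.28 (SE 0.41) in the second cohort. The 3′ end of Rarb overlaps the 3′ end of Top2b on the other strand by 4624 bases, chr14:16430839-16435462. Since the strand setting of the counting is not known, Rarb counts may include Top2b reads or lack some of their own from the overlap.

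Counted together, 3 of 8 tested genes were called higher and 0 lower in UIRI d3 over Control, where 17.8% of all genes were called higher and 32.7% called at all. In UIRI+Nx d7 over Control, 3 of 9 were called higher and 0 lower, against 17.3% higher and 31.3% called at all. In UIRI d7 over Control, 4 of 8 were called higher and 0 lower, against 21.5% higher and 39.6% called at all. Medians of the log2 fold change over the 9 genes were 0.58, 0.31 and 0.71 in these contrasts. Over all genes they were 0.00, 0.02 and 0.04. The medians of the 9 genes include Stra6, whose UIRI d3 and UIRI d7 libraries chose the set. No shift of the set is read from them. Libraries lay wholly above Control, without overlap, for Aldh1a2 in UIRI d3 and UIRI d7, where 10.3% and 10.9% of all genes did so in that order, and for Stra6, Aldh1a1 and Aldh1a2 in UIRI+Nx d7, where 9.74% did. The 3 contrasts share their Control libraries.

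For UIRI+Nx d7 over UIRI d7, 1 of 8 tested genes was called higher, Aldh1a1, and 1 lower, Rdh10, in the first cohort, where 3.17% of all genes were called higher, 3.46% lower and 6.62% at all. In the second cohort 1 of 7 tested genes was called higher, again Aldh1a1, and 1 lower, Aldh1a2, against 2.58% higher, 2.66% lower and 5.24% at all. Libraries of UIRI+Nx d7 lay wholly above UIRI d7 for Aldh1a1 in both cohorts, against 1.56% of all genes in the first and 3.03% in the second. They lay wholly below for 0 of the 8 genes other than Stra6 in the first cohort, against 1.45% of all genes, and for Aldh1a2 and Rdh10 in the second, against 3.02%. Stra6 is left out of these counts wherever its UIRI d3 or UIRI d7 libraries enter, since those chose it. Medians were -0.44 over 9 genes in the first cohort and -0.39 over 8 in the second. Over all genes they were -0.01 in the first and 0.00 in the second. The medians of 9 and 8 genes include Stra6, so no shift of the set is read from them. A direct test of the difference between cohorts called 0 of 16606 genes with edgeR, 1411 had an unadjusted p under 0.05, and no retinoid gene tested had an adjusted p below 0.803.

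**Figure D3:**
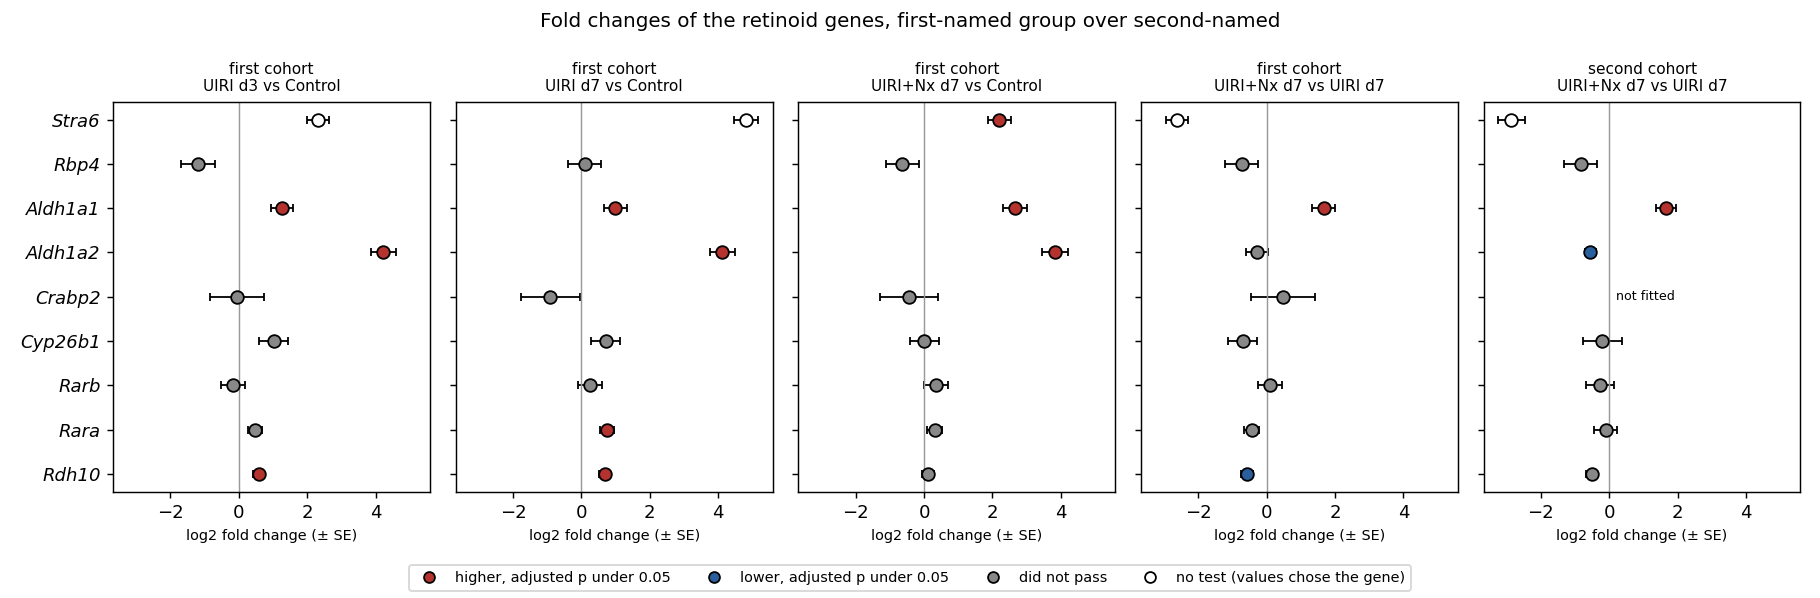
Log2 fold change (x) with SE for the 9 genes in the 5 comparisons, first-named group over second-named. Filled red or blue points were called higher or lower, grey points were not, and open points carry no test because the values chose Stra6; Aldh1a2 stands at 3.83 or more over Control in all injured groups, and Aldh1a1 at 1.67 over UIRI d7 in UIRI+Nx d7 of both cohorts.

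Cell type markers moved with injury in the same libraries. Over Control, 7 or 8 of 8 fibroblast markers and 7 or 8 of 8 macrophage markers were called higher in each injured group of the first cohort, and 5 to 8 of 8 proximal tubule markers were called lower. Summed macrophage marker CPM ranged over 164 to 326 in Control, 449 to 869 in UIRI d3, 1091 to 2164 in UIRI+Nx d7 and 1403 to 3154 in UIRI d7. Summed fibroblast marker CPM ranged over 284 to 455 in Control, 1276 to 2147 in UIRI d3, 2129 to 2702 in UIRI+Nx d7 and 1401 to 2519 in UIRI d7. Summed mesothelium and capsule marker CPM, 234 to 421 in Control, was 103 to 232 over the injured groups, where Aldh1a2 was higher, and of 5 fitted markers of that list 2 were called higher in each injured group and 1 or 2 lower. The part of these cells in the retinoid differences over Control was not tested.

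Between UIRI+Nx d7 and UIRI d7, where Stra6 and Aldh1a1 differed, fewer markers were called, as fewer genes were. Shares of all genes were 3.17% called higher and 3.46% lower in first-cohort kidneys. For second-cohort kidneys they were 2.58% higher and 2.66% lower. No fibroblast marker of 8 was called in either cohort, and 1 of 8 macrophage markers was called lower in each. Of 8 proximal tubule markers, 2 were called higher in first-cohort kidneys and 1 in second-cohort kidneys. The median log2 fold change of these 8 was 0.55 in first-cohort kidneys but -0.24 in second-cohort kidneys, so its direction differed. Of 6 collecting duct markers, 1 was called higher in first-cohort kidneys and 2 in second-cohort kidneys, with medians of 0.89 and 0.6 in that order. Summed macrophage marker CPM in these groups overlapped, at 1091 to 2164 in UIRI+Nx d7 and 1403 to 3154 in UIRI d7 of the first cohort, and at 1429 to 2113 in UIRI+Nx d7 and 1762 to 3386 in UIRI d7 of the second. Summed collecting duct marker CPM ranged over 400 to 997 in UIRI+Nx d7 and 266 to 562 in UIRI d7 of the first cohort, and over 372 to 519 in UIRI+Nx d7 and 161 to 293 in UIRI d7 of the second. The second-cohort sums did not overlap. Red blood cell markers had medians of -1.74 in the first cohort, with 0 of 5 called, and -1.38 in the second, with 2 of 5 called lower. Of 6 podocyte markers 1 was called lower in each cohort, and of 6 endothelial markers 1 was called lower in the first. The part of these markers in the Aldh1a1 and Stra6 differences was not tested.

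The wider retinoid pathway was read from a list of 67 other genes, of which 66 were in the table and 51 passed the filter in each cohort. Of these 51, 8 rose and 19 fell in UIRI d3 over Control, 7 rose and 13 fell in UIRI+Nx d7, and 12 rose and 19 fell in UIRI d7, with median log2 fold changes of -0.27, -0.14 and -0.28. Over all genes in those contrasts, 17.8% were called higher and 14.9% lower in UIRI d3, and 17.3% higher and 14% lower in UIRI+Nx d7. In UIRI d7 21.5% were called higher and 18.1% lower. The role groups below are read beside these shares. The genes that rose include Dhrs9 and Ret, and in UIRI d3 Rdh12, whose higher calls are not read as results, for reasons given below. With nephrectomy relative to UIRI d7, 5 rose and 0 fell in the first cohort and 1 rose and 0 fell in the second. The medians were 0.03 in the first and -0.03 in the second. Of all genes 3.17% were called higher and 3.46% lower in the first cohort, and 2.58% higher and 2.66% lower in the second. The second-cohort count lies near these shares.

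Among transport genes, Ttr, the plasma partner of RBP4, fell by 2.72 (SE 0.50) in UIRI d7 over Control, and was 2.58 (SE 0.49, edgeR adjusted p = 0.00172) higher in UIRI+Nx d7 than in UIRI d7 of the first cohort, with libraries from 18.2 to 301 CPM in UIRI+Nx d7 and 10.0 to 28.8 CPM in UIRI d7. In the second cohort Ttr was not called. Rbp7, a retinol-binding protein, was called lower in UIRI+Nx d7 than in Control at very low levels, with mean CPM of 0.0495 and 0.382. Lrp2, a proximal tubule receptor that takes up filtered RBP4 and also served as a tubule marker, averaged 584 ± 135 CPM in UIRI d3, 524 ± 376 CPM in UIRI+Nx d7 and 424 ± 145 CPM in UIRI d7, against 1529 ± 469 CPM in Control (SD, n = 6 each).

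Genes that handle retinyl esters were lower or not called over Control. Lpl, lipoprotein lipase, averaged 285 ± 40.3 CPM in UIRI d3, 230 ± 26.7 in UIRI+Nx d7 and 231 ± 52.9 in UIRI d7, against 1747 ± 389 in Control (SD, n = 6 each), and fell in each, by 2.62, 2.93 and 2.92 on the log2 scale in that order of groups. Ces1d, a carboxylesterase, fell by 2.29 (SE 0.64) in UIRI d3 and by 2.81 (SE 0.66) in UIRI d7 over Control.

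Among the dehydrogenases and cleavage enzymes that interconvert retinol and retinal, 4 rose and 8 fell of 16 fitted in UIRI d3 over Control, 4 rose and 8 fell in UIRI+Nx d7, and 3 rose and 9 fell in UIRI d7, where 14.9%, 14% and 18.1% of all genes fell in that order of groups. Rdh5 fell by 2.21 (SE 0.24) in UIRI d3 and by 2.83 (SE 0.25) in UIRI+Nx d7 over Control. Rdh12 rose by 2.19 (SE 0.43) in UIRI d3 over Control at low levels, with mean CPM of 2.35 and 0.490. Dhrs9 was called higher in all injured groups and was counted in 1 of 6 Control libraries. Its means were 1.24 CPM in UIRI d3, 0.447 in UIRI+Nx d7 and 0.436 in UIRI d7. Dhrs9 passed the filter on low counts mainly through UIRI d3, and Rdh12 largely through the injured groups. Their higher calls over Control are therefore not read as results, nor are the counts of risen genes in this role, which include them. Rdh16 was 1.26 (SE 0.33, edgeR adjusted p = 0.0200) higher in UIRI+Nx d7 than in UIRI d7 of the first cohort, with means of 37.8 and 15.8 CPM.

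Of 10 fitted genes known as retinoid targets or retinoid-induced, 2 rose and 1 fell in UIRI d3 over Control, 1, Ret, rose in UIRI+Nx d7 and 3 rose in UIRI d7. Of all genes 17.8%, 17.3% and 21.5% rose in that order of groups, so these counts lie near the background. The risen targets include Ret in each group, so their counts are not read as a result about targets. Ret, a receptor kinase of the ureteric bud, rose by 1.92 (SE 0.49) in UIRI d3 and by 1.82 (SE 0.49) in UIRI d7 over Control. Its mean CPM was 1.24 in UIRI d3 and 1.16 in UIRI d7, against 0.303 in Control, where the highest library held 0.701. The filter on low counts thus kept Ret through the injured groups, and its higher calls are not read as results. No fitted target was called in UIRI+Nx d7 over UIRI d7 in either cohort. The share of all genes called there was 6.62% for first-cohort kidneys and 5.24% for second-cohort kidneys. With 10 fitted targets, the lack of calls lies near the background and is not read as a result about targets. The plot of the list by role shows these counts.

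**Figure D4:**
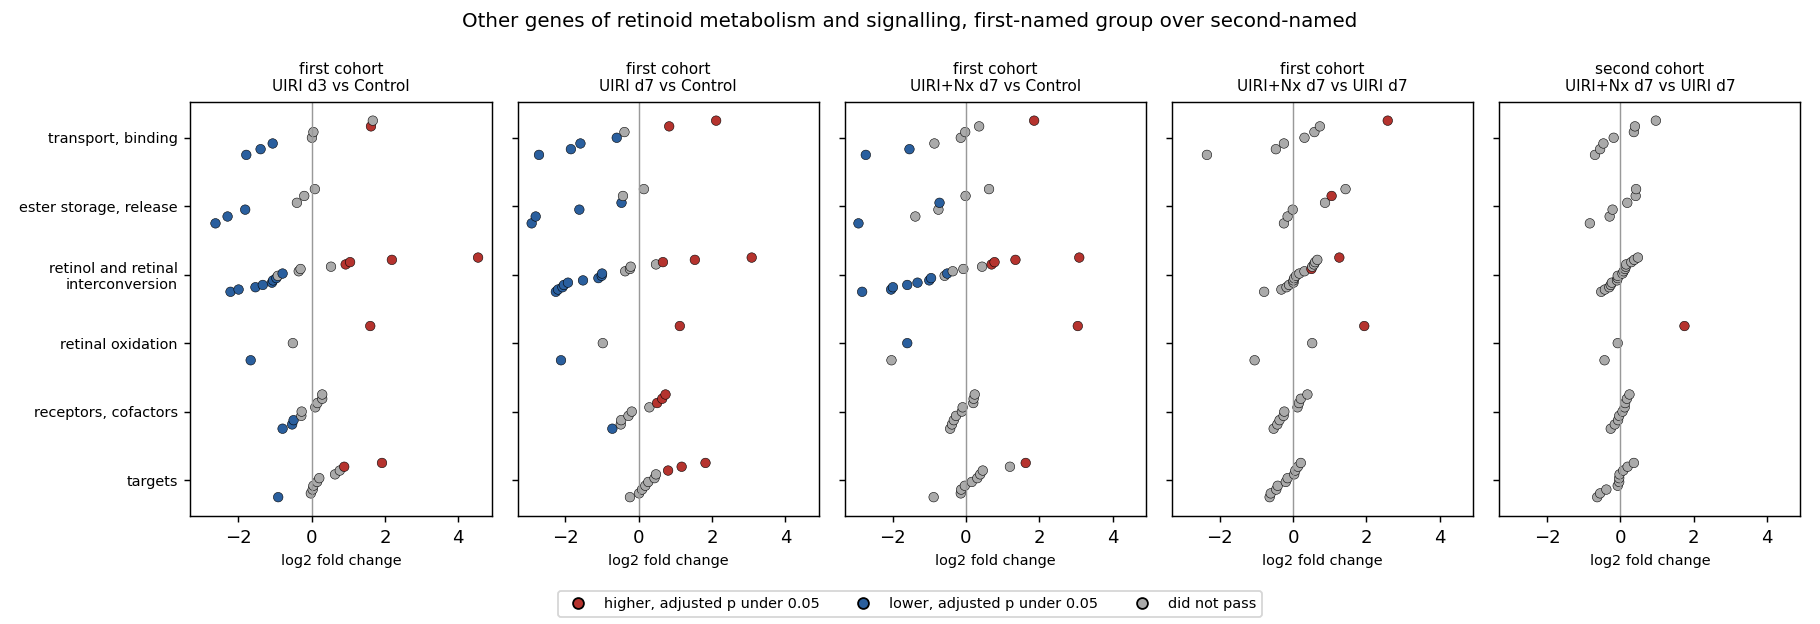
Log2 fold change (x) of the 51 fitted genes of the wider retinoid list, by role, in the 5 comparisons, first-named group over second-named; each point is 1 gene, coloured where it was called. Ester, interconversion and transport genes hold most of the lower calls over Control, and Aldh1a7, in the retinal oxidation row, is the gene called higher with nephrectomy in both cohorts, at 1.94 and 1.75.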

How the data were processed

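RNA from a frozen kidney pole section (500 ng input) was made into QuantSeq 3′ FWD libraries, per the labels' protocols. The authors deposited raw counts per gene for 41 libraries. Per the submitters' processing notes, the first cohort names Trimmomatic, STAR, HTSeq 0.6.1 and GRCm38 and the second STAR 2.7.11b and GRCm39; neither names an annotation or a strand setting. Because builds differ, the cohorts were fitted apart.

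From these counts, edgeR 4.0.16 (R 4.3.3, limma 3.58.1) gave TMM scaling, filterByExpr filtering and quasi-likelihood tests with Benjamini-Hochberg adjustment over all fitted genes at 0.05, with all groups of a cohort in 1 fit. A joint fit of 40 libraries gave the difference between cohorts. CPM are on TMM-scaled totals. Standard errors were taken from the fold change and its F value. The fits were tested on simulated data. Alternatives were DESeq2 1.42.0 (adjusted p), other scaling factors, no filter, replicate number or library set as a covariate, fits within sets, only the groups compared, and each library left out.

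All 9 genes are named whatever their values; of the wider list, up to 3 called genes in each direction per comparison by size of change, of which 1 gene is not reported here; for likeness to Stra6, the 5 highest, on log2 of CPM with an offset of 0.5. The genes, lists and tests were chosen with earlier results of these data known. Gene positions and 3′ ends are from GENCODE on GRCm38 and promoter windows from RefSeq on GRCm38.p6. Of 48795 gene IDs 48349 had a symbol. Replicate numbers were not treated as pairs in the main fits. Over 28 same-numbered pairs the correlation of deviations from group means ran from -0.381 to 0.491. These values cannot settle whether samples were paired. Chi-square per degree of freedom between libraries of a group was never below 8.57, so none was counted as a repeat of another. Depth limits Crabp2 and Rbp4 most, since they rest on few reads per library.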

Additional observations from a re-analysis of the deposited data

Results flagged for a closer look

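In 7 of 63 sets of 1 gene in 1 group, the highest or lowest library stood apart from the rest of its group. The gap was larger than Dixon's 95% limit. Chance marks about 1 in 20 such sets if values follow a normal distribution, which was not tested for these CPM. Aldh1a1 stood at 23.8 CPM in replicate 3 of UIRI d3 in the first cohort, where the next library held 7.52 CPM, and at 23.2 CPM in replicate 1 of UIRI d3 in the second, where the next held 15.9 CPM. Aldh1a2 stood at 78.6 CPM in replicate 6 of UIRI d3 in the first cohort, with the next at 30.7 CPM. Crabp2 reached 2.04 CPM, from 12 reads, in replicate 3 of UIRI+Nx d7 in the first cohort, with the next at 0.435 CPM. Rarb stood at 8.98 CPM in replicate 1 of UIRI d3 in the first cohort, with the next at 5.75 CPM, and at 8.90 CPM in replicate 3 of UIRI d7 in the second, with the next at 5.13 CPM. Rdh10 was lowest in replicate 4 of UIRI d7 in the first cohort, at 69.3 CPM, where the next library held 119 CPM.

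The library titled as undetermined, which has no group and entered no comparison, may hold reads that no index assigned to a sample, and so a mixture of kidneys. It held more than the highest Control library, beyond its 95% Wilson counting interval, for 5 of the 9 genes. Its CPM, here scaled to its total of 12446693 reads without TMM scaling, was 11.5 for Stra6, against at most 1.61 in Control. It was 14.7 for Aldh1a1, against at most 4.78 in Control, and 25.6 for Aldh1a2, against at most 2.14. Cyp26b1 stood at 54.4, against at most 41.4 in Control, and Rdh10 at 110.1, against at most 82.3. With TMM scaling the highest Control library held 52.1 CPM of Cyp26b1, inside the counting interval of 50.4 to 58.6. The Cyp26b1 difference thus depends on leaving out the TMM scaling. Rara stood at 25.4, against at most 23.4 in Control, which lies within its counting interval of 22.7 to 28.3.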

How the results depend on the processing

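Each result was recomputed under the alternatives listed with the processing. No called value changed sign. Of 1061 alternative fold changes 43 had the other sign, none with a call in either fit, among them Rbp4 (0.16 in set 1a) and Cyp26b1 (-0.03 in set 2b) in UIRI d3 over Control, and Aldh1a1 in UIRI d7 over UIRI d3 (0.25 without UIRI d3 replicate 3). With 1 library left out, genes called ranged over 4634 to 5081 for UIRI d3 over Control, 4451 to 4940 for UIRI+Nx d7 over Control and 5709 to 6277 for UIRI d7 over Control. For UIRI+Nx d7 over UIRI d7 they ranged over 695 to 1087 in the first cohort and 328 to 898 in the second, where the lowest came without UIRI+Nx d7 replicate 2. Retinoid genes called in those fits numbered 3 to 4, 3 to 3, 3 to 4, 1 to 2 and 1 to 2 in the same order. Stra6 at UIRI d7 over UIRI d3 ranged over 2.41 to 2.63 in the first cohort and 3.05 to 3.32 in the second. DESeq2 called 5 retinoid genes in UIRI d3 over Control and 1249 genes in UIRI+Nx d7 over UIRI d7 of the second cohort. For UIRI+Nx d7 over UIRI d7, the retinoid genes called dropped to 1 in both cohorts with no filter and with only the groups compared (586 genes called in the first), and to 1 with library set as a covariate in the second. The replicate block left 1 retinoid gene called in UIRI+Nx d7 over UIRI d7 of the first cohort, where Rdh10 had an adjusted p of 0.0647, and changed no other retinoid call. Within set 1a, genes called were 2729 for UIRI d3 over Control, 2933 for UIRI+Nx d7 over Control and 131 for UIRI+Nx d7 over UIRI d7, with 1 retinoid gene called for UIRI d7 over Control and 0 for UIRI+Nx d7 over UIRI d7. Within set 2b they were 2366 for UIRI d3 and 1709 for UIRI+Nx d7, both over Control. Within the second cohort UIRI+Nx d7 over UIRI d7 gave 176 genes and 1 retinoid gene in set 2a, and 16 genes and 0 retinoid genes in set 2c. These within-set fits have fewer libraries; for the other changes the cause was not tested. Over all single-gene values, including those given above, 19 lost and 7 gained a call with 1 library left out.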
